A study of Mus musculus with 7 samples.

Results

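Of 42865 merged promoter regions of open chromatin in mouse muscle stem cells (MuSCs), 1340 (3.13%) had an ATAC-seq peak in both Control libraries and in neither TRF2KO library. They were chosen by that rule on the peaks the authors called with MACS on chromosomes 1 to 19. Overlapping peaks of the 4 ATAC libraries were merged, and a region counted as a promoter region when it lay within 3 kb of any transcript start of GENCODE release 21 for mouse. Presence in Control and absence from TRF2KO are therefore the selection itself and were not tested. The mirror set, with a peak in both TRF2KO libraries and in neither Control library, held 414 regions (0.966%), and 24477 promoter regions had a peak in all 4.

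ATAC-seq uses a transposase that cuts accessible DNA, so that a peak marks chromatin free enough of nucleosomes to be cut. MuSCs rebuild skeletal muscle after damage. In undamaged muscle they are quiescent, and the paper describes Pax7 as central to their identity. Their later differentiation depends on E-box-binding factors of the MyoD family, which open enhancers and promoters of muscle genes. TRF2, encoded by Terf2, is a subunit of the shelterin complex that protects telomeres, and it has also been found at sites along chromosome arms.

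The series held 7 libraries. The 2 Control and 2 TRF2KO ATAC libraries came from MuSCs sorted from the hindlimb muscle of mice without injury and labelled 0 h. According to the study's methods, TRF2KO mice carried a floxed Terf2 gene and a tamoxifen-inducible Cre recombinase driven by Pax7, which limits deletion to cells that express Pax7. Tamoxifen was begun in young adult mice. Control mice were wild type by label and by the paper's text, and whether they were given tamoxifen and how many mice made up a library are not given in the sources used here. CUT&Tag, in which an antibody tethers the transposase to a protein's sites, gave 2 TRF2 libraries and 1 IgG library labelled as MuSCs from the tibialis anterior muscle of wild-type mice 3 days after the muscle toxin notexin. The methods text differs from these labels in all 3 respects, with mice that carry Pax7 Cre and a floxed TdTomato reporter, the gastrocnemius besides the tibialis anterior, and an earlier time after injury. Titles decided the groups, since the 2 knockout libraries carry a wild-type entry as their genotype. The CUT&Tag cells were thus injured and the ATAC cells were not.

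The MACS lists held 87394 and 98558 peaks in Control 1 and 2 and 83039 and 82556 in TRF2KO 1 and 2. Control 2 had the highest background, with a median pileup of 4.56 overlapping fragments under its peaks against 3.35 to 3.41 in the others. The peak at the Terf2 start had a MACS fold (summit height over local background) of 54.3 and 48.4 in Control and of 21.5 and 18.6 in TRF2KO. Signal at the start does not measure the deletion itself. MuSC markers (Pax7, Myf5, Vcam1 and others) had a start in a region with a peak in all 4 libraries for 12 of 12 genes, and immune markers for 0 of 5. The same held for 3 of 5 fibro-adipogenic, 2 of 5 endothelial, 2 of 3 smooth muscle, 1 of 2 Schwann and 1 of 4 myofibre markers.

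The sequence at the summits is shown first, because the hexamer CAGCTG, an E-box preferred by MyoD-family factors, was present in a larger share of Control-only than of TRF2KO-only regions, as described further on. Each line gives 120 bases of the plus strand of GRCm38 centred on the Control 1 summit, with CAGCTG in capitals. The first 4 lie near starts of muscle differentiation genes and were picked after their values were seen. Starts here include internal ones, and the Cacna1s region lies 2172 bp from such a start and 50250 bp from the outermost start of the gene. Mymk (chr2:27069830-27069949, intron) encodes the fusion protein myomaker, Ttn (chr2:76981819-76981938, intron) the sarcomere protein titin, Cacna1s (chr1:136102940-136103059, intron) the voltage sensor of excitation-contraction coupling, and Myh3 (chr11:67075068-67075187, between genes) embryonic myosin heavy chain.

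Mymk: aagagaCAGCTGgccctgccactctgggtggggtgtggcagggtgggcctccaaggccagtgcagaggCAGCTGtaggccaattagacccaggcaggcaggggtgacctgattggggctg
Ttn: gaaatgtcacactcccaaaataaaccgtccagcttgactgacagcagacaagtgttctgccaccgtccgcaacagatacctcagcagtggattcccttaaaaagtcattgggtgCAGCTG
Cacna1s: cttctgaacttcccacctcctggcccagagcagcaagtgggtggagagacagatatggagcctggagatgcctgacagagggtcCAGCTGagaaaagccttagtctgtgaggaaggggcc
Myh3: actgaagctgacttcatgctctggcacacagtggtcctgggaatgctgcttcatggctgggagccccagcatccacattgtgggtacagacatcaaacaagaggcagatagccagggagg

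Supt6 (chr11:78223799-78223918, intron) and Ctrc (chr4:141849036-141849155, between genes) are among the regions with the highest folds, and Gm30329 (chr8:79227304-79227423, intron) and Ppt1 (chr4:122838631-122838750, intron) had TRF2 peaks in both CUT&Tag libraries.

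Supt6: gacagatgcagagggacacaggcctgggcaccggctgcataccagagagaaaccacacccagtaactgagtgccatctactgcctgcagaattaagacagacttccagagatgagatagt
Ctrc: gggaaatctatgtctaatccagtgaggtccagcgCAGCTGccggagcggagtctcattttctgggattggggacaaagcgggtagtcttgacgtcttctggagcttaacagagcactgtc
Gm30329: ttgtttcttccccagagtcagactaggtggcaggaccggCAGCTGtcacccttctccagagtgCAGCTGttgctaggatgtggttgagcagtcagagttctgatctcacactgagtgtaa
Ppt1: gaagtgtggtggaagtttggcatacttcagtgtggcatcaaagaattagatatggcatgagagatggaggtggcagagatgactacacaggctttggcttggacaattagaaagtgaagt

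The Mymk and Gm30329 stretches each hold 2 copies of CAGCTG, those of Ttn, Cacna1s and Ctrc 1 copy each, and those of Myh3, Supt6 and Ppt1 none. Stretches read in the same way but not shown also held none. They were at the other intronic Mymk region, the Ttn start, Myom1, Tnnt3, Gm8388 and D630033O11Rik. The lines shown thus hold the hexamer more often than those left out. A copy of the hexamer is a description of the letters and not a measured binding site.

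Control-only promoter regions were small peaks. Their median fold was 4.14 in Control 1 (2.53 to 15) and 3.78 in Control 2 (2.34 to 15.7), whereas regions with a peak in all 4 libraries had medians of 23.5 and 20.7. The summit height solved from fold and p had a median of 17 fragments in Control 1 and 20 in Control 2, and the lowest peak in either TRF2KO list had 10. In the list of Control 1, 20 of the 1340 (1.49%) stood above the median peak, and in that of Control 2, 79 (5.90%) did. The lowest called summits were at 10 in Control 1 and 12 in Control 2.

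**Figure D1:**
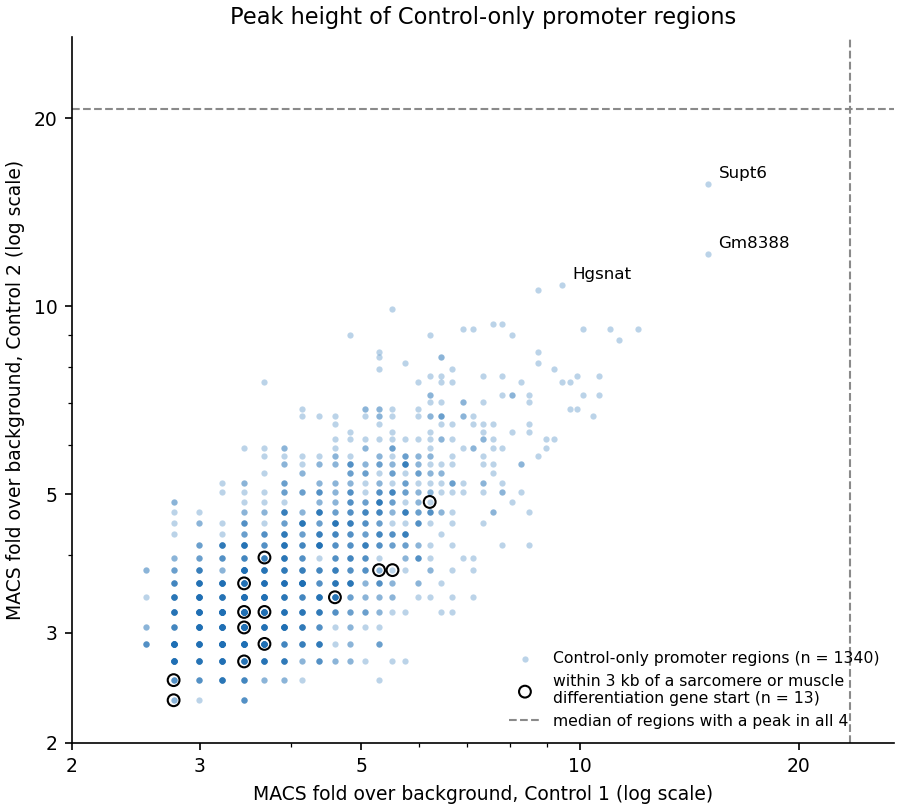
Peak height of the 1340 Control-only promoter regions, as the MACS fold over background in Control 1 (x axis, log scale) and Control 2 (y axis, log scale). Each point is a region, open circles mark the 13 regions near sarcomere and muscle differentiation genes, and dashed lines mark the median of regions with a peak in all 4 libraries (23.5 and 20.7), above every Control-only region.

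The share of Control peaks without a counterpart was given by height, taken as the lower of both Control folds. Of all 27811 promoter regions with a peak in both Control libraries, 4.82% were absent from both TRF2KO lists. Among all merged regions, Control-only ones made up 3.13% at promoters (1340 of 42865) and 5.21% away from them (4038 of 77579). Under a fold of 3 the share absent was 45.7% (327 of 715). It was 25% from 3 to 4, 13.3% from 4 to 5 and 5.87% from 5 to 7, and at 7 and over it was 0.150% (30 of 20050). The mirrored shares, of regions with a peak in both TRF2KO libraries that both Control lists lacked, were 24.4, 11.8, 2.87, 1.19 and 0.0470% in the same bins. Both genotypes lost weak peaks from the other's lists, and at each height the share was larger on the Control side. Control 2, with its higher background and longer list, is on that side, and when every list was limited to its 82556 strongest peaks, 887 Control-only promoter regions were left. The part of depth in these was not tested.

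**Figure D2:**
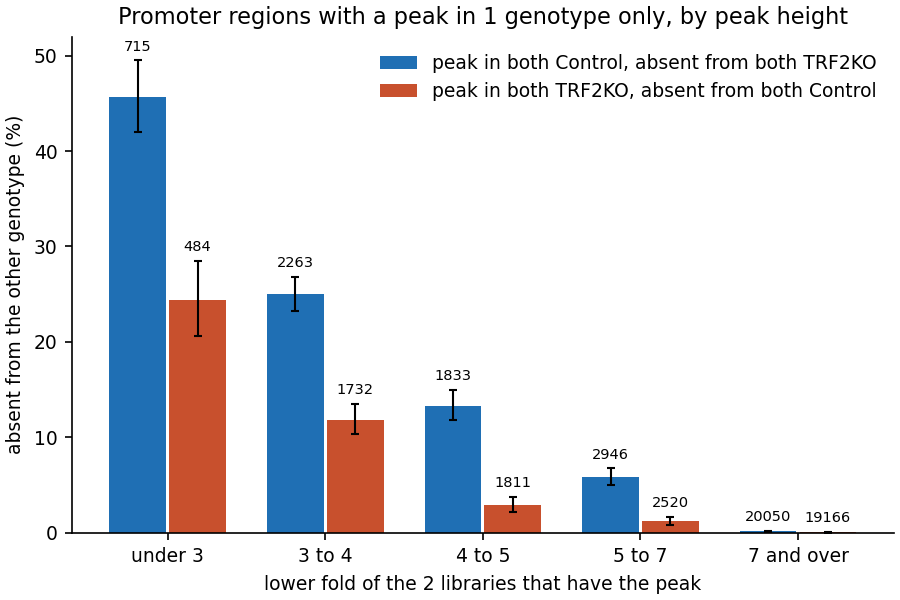
Share of promoter regions (y axis, %) that had a MACS peak in each library of 1 genotype but were absent from the other, by the lower fold of the pair (x axis). Bars are exact 95% intervals for counting error, and numbers above the bars are the regions in each bin. The share falls from 45.7% to 0.150% for Control and from 24.4% to 0.0470% for TRF2KO.

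Regions of other peak callers and the deposited consensus lists covered part of the members. GoPeaks listed a region over 450 members (33.6%) in both Control libraries, over 351 (26.2%) in 1 and over 539 (40.2%) in none. In TRF2KO it listed a region over 86 members (6.42%) in at least 1 library and over 20 (1.49%) in both, against 45.2% of TRF2KO-only and 97.7% of shared regions in at least 1. Both comparison classes were chosen for a TRF2KO peak, so such contrasts follow from the rule. In the mirrored count, GoPeaks listed a Control region over 5.07% of TRF2KO-only regions in 1 library and over 2.66% in both. SEACR, whose regions are several kilobases wide, covered 677 (50.5%) in at least 1 TRF2KO library, against 46.1% of TRF2KO-only and 81.2% of shared regions. The consensus list of Control held 972 members (72.5%) and that of TRF2KO 617 (46.0%), and the TRF2KO list held 53.4% of TRF2KO-only and 93.7% of shared regions. The Control list held 44.2% of TRF2KO-only regions. Neither GoPeaks nor SEACR listed a TRF2KO region over 621 members (46.3%, 95% interval 43.6 to 49.1%), and 218 of these had a GoPeaks region in both Control libraries. These lists come from the same reads and are not independent evidence. With GoPeaks in place of MACS the rule gave 813 promoter regions and with SEACR 116.

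The 15 regions with the highest lower fold mostly lay outside start sites. Their gap to the nearest TRF2KO peak ranged from 171 bp at Piezo1 to 121153 bp at Gm8388. Near Supt6, a gene for a histone chaperone of transcription elongation, the region at chr11:78223702-78224020 had folds of 15 in Control 1 and 15.7 in Control 2 and no MACS peak in TRF2KO 1 or 2. It lay in an intron, 16 bp from an internal transcript start, and summits of 64 and 86 fragments made it the tallest member. GoPeaks nevertheless listed it in 1 TRF2KO library.

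Next to the pseudogene Gm8388 the folds were 15 and 12.1, and GoPeaks listed that region in both TRF2KO libraries. In an intron upstream of a start of Hgsnat, a lysosomal acetyltransferase gene, they were 9.44 and 10.8. Upstream of Ctrc, which encodes a digestive protease, they were 10.1 and 9.18. Both of the latter regions held CAGCTG, and neither gene is a muscle gene by its known role.

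Also among the 15 tallest, near Nr6a1, the gene of an orphan nuclear receptor, folds were 11 and 9.18. Near Ttll5, a tubulin-modifying enzyme, they were 8.75 and 8.10, and near Piezo1, a mechanosensitive ion channel, 8.05 and 9.0. Near Dgkq, a diacylglycerol kinase, they were 10.6 and 7.74. The remaining 7 of the 15 were named by the pseudogenes Gm8807, Gm13586 and Gm42689 and the noncoding or unclassified transcripts 8430422M14Rik, Gm29507, Gm42483 and 1700037C06Rik, with lower folds from 7.74 to 9.18. Of the 15, 7 were nearest to a protein-coding gene, 2 lay over a start, 8 held CAGCTG within 150 bp of the summit, 0 had a TRF2 peak, 7 had no GoPeaks region in TRF2KO, and 5 had no region of another caller in TRF2KO. Among all members, 6.42% had a GoPeaks region in at least 1 TRF2KO library, and 46.3% had no region of another caller there. A GoPeaks region in TRF2KO was thus more frequent among these 15 than among all members.

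The Rpn2 gene, which encodes a subunit of the oligosaccharyltransferase that glycosylates proteins in the endoplasmic reticulum, had 3 members within 26.1 kb. Their folds were 7.82 and 7.20, 6.90 and 9.18, and 6.90 and 7.02 in Control 1 and 2. All lay in introns, and GoPeaks listed each in both Control libraries and 1 of them in a TRF2KO library. In all, 1258 genes were nearest to a member, 73 of them to at least 2 and 9 to 3, among them Rpn2 and Mymk. Both were named after their counts were seen. Nearest to both a Control-only and a TRF2KO-only promoter region were 21 genes.

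Most members did not sit on a start site. A transcript start lay inside 205 of the 1340 (15.3%, 95% interval 13.4 to 17.3%), against 22.0% of TRF2KO-only regions and 64.0% of regions with a peak in all 4. The rule admitted any distance up to 3 kb, and the median distance was 1047 bp. Within 500 bp of a start lay 32.7% of members, 41.8% of TRF2KO-only regions and 70.0% of regions with a peak in all 4. Among the latter with a lower fold from 3 to 4 it was 51.5% (48.2 to 54.7%), against 35.2% (31.2 to 39.3%) of members of that height. Width also differed between the classes. The median member was 418 bp wide and the median region with a peak in all 4 was 1306 bp. At a lower fold from 3 to 4 the medians were 444 and 718 bp. The part of width in these positions was not tested.

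**Figure D3:**
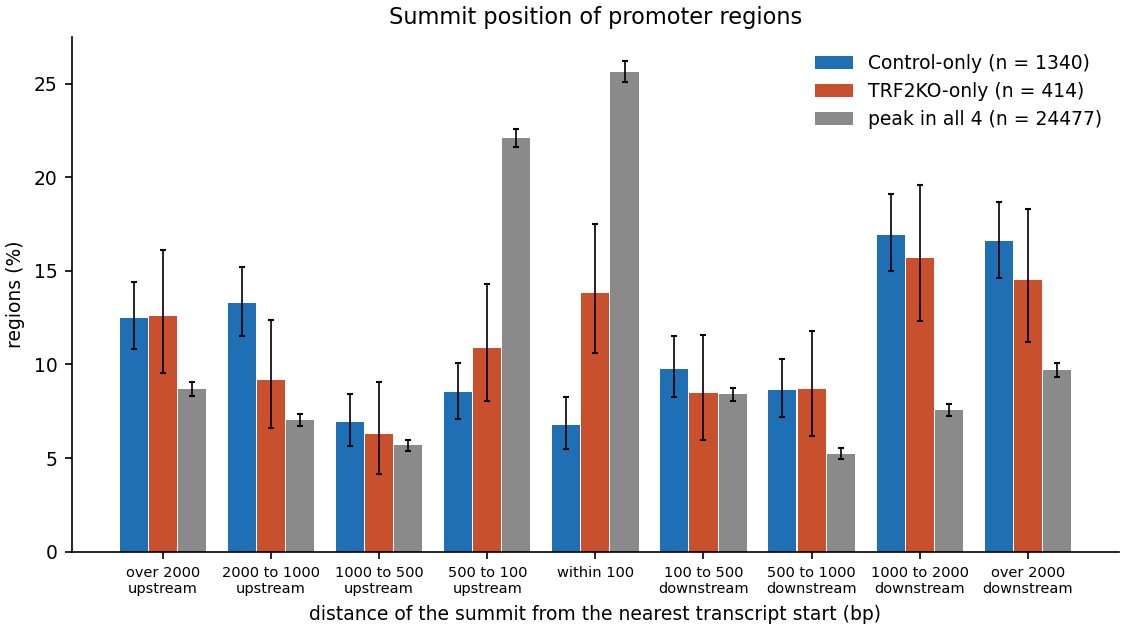
Position of the summit relative to the nearest transcript start (x axis, bp, upstream on the left) in Control-only, TRF2KO-only and shared promoter regions (y axis, % of each class). Bars are exact 95% intervals. Within 100 bp of a start lay 6.79% of Control-only, 13.8% of TRF2KO-only and 25.6% of shared summits.

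By annotation, 56.0% of member summits (53.3 to 58.6%) were in introns, 17.1% between genes, 9.70% in coding exons, 7.09% in UTRs and 10.1% in other exons. Shared regions had 36.9% in introns and 31.1% between genes. TRF2KO-only regions had 51.2% (46.3 to 56.1%) in introns, overlapping the interval of members, and 23.2% between genes. The nearest start belonged to a protein-coding gene in 66.1% of members and to a long noncoding RNA gene in 17.0%. These shares were 66.4 and 18.4% in TRF2KO-only regions and 77.3 and 12.5% in shared regions. For 59.4% of members (56.7 to 62.0%), the gene also had a start in a region with a peak in all 4 libraries. The same held for 54.6% (49.7 to 59.5%) of TRF2KO-only regions, and for 84.9% of shared regions, which can hold that start themselves. A start inside the merged region was counted, and it need not lie in the peak of each library. The median gap from a member to the nearest TRF2KO peak was 1663 bp, and 20.9% of members had a TRF2KO peak within 500 bp. From TRF2KO-only regions to the nearest Control peak the median gap was 1914 bp, and 19.8% had one within 500 bp. The members nearest to the 3 kb limit were those of Gpbar1 (2999 bp, folds 3.68 and 3.24) and Pgs1 (2998 bp, 3.45 and 3.60), and the nearest Control-only regions outside it were those of Endov (3003 bp, 7.13 and 5.22) and Rapgef1 (3005 bp, 4.14 and 3.06).

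Sequence was read in the 300 bp at the summit and does not enter the rule. CAGCTG was present in 561 of 1340 members (41.9%, 95% interval 39.2 to 44.6%), in 100 of 414 TRF2KO-only regions (24.2%, 20.1 to 28.6%) and in 6913 of 24477 regions with a peak in all 4 (28.2%, 27.7 to 28.8%). In the 31396 RefSeq promoters of GRCm38, which have the same length of 300 bases, it was present in 16.3%. At least 2 copies were found in 12.2% of members, 2.90% of TRF2KO-only regions and 5.92% of shared regions. The hexamer reads the same on both strands. Regions are not replicates of a genotype, and the intervals cover counting error only. The share depended on asking for a peak in both Control libraries. It was 29.1% (28.0 to 30.2%) when Control 1 was left out and 33.7% (32.1 to 35.2%) when Control 2 was. The former interval overlapped that of shared regions given above, which is for all 4 libraries.

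With all distances pooled, the share of members with CAGCTG was larger among taller peaks, and that of shared regions was not. In members it was 30.6% under a fold of 3, 40.1% from 3 to 4, 48.8% from 4 to 5, 57.2% (49.5 to 64.7%) from 5 to 7 and 53.3% (34.3 to 71.7%) at 7 and over. In shared regions of the same bins it was 31.9, 28.8, 27.6, 30.0 (28.2 to 31.9) and 28.0%. The intervals of both classes overlapped under a fold of 3 and were apart in each of the 4 bins above it.

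Regions with a peak in both Control libraries and in 1 TRF2KO library, of which there were 1994, had a pooled share between those of both classes, at 34.5% (32.4 to 36.6%). It went from 18.9% under a fold of 3, below both, to 47.6% (39.7 to 55.5%) at 7 and over.

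The share was also compared at like distance from a start. Within 500 bp of a start it was 40.6% (36.0 to 45.4%) in members, 27.7% in TRF2KO-only regions and 24.3% (23.6 to 24.9%) in shared regions. Farther away it was 42.5% (39.2 to 45.8%), 21.6% and 37.5% (36.4 to 38.6%). The gap beyond 500 bp was thus small when peaks of all heights were pooled. At a lower fold of 5 to 7 it was 56.2% (47.2 to 64.8%) in members and 30.5% (28.0 to 33.2%) in shared regions. Among shared regions beyond 500 bp the share was 40.8% (39.4 to 42.1%) at 7 and over, so there it was larger among the tallest peaks too. The intervals of members and shared regions overlapped under a fold of 3 at both distances, from 3 to 4 within 500 bp, and at 7 and over beyond it, where there were 21 members.

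The median GC of the windows was 52.3% in members and in TRF2KO-only regions and 58.0% in shared ones. Between 50 and 55% GC, CAGCTG was found in 41.8% (37.0 to 46.7%) of members, 26.7% (18.4 to 36.5%) of TRF2KO-only and 36.4% (35.0 to 37.8%) of shared regions. There the intervals of members and shared regions overlapped. Between 55 and 60% GC the shares were 50.9% (45.3 to 56.6%), 29.5% (20.3 to 40.2%) and 34.5% (33.2 to 35.9%).

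**Figure D4:**
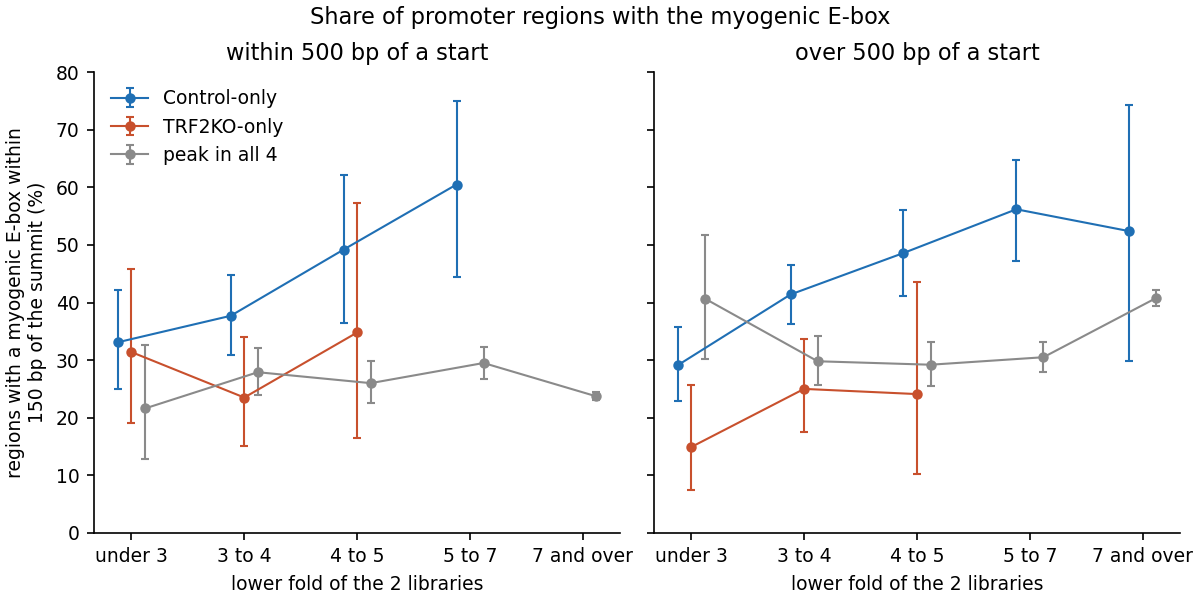
Share of promoter regions with CAGCTG within 150 bp of the summit (y axis, %) by the lower fold of the pair of libraries (x axis), within 500 bp of a start (left) and farther away (right). Points carry exact 95% intervals and bins of fewer than 20 regions are left out. From 5 to 7 the Control-only share is 60.5% (left) and 56.2% (right), and the shared one 29.5% and 30.5%.

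The pattern was not limited to promoters. Away from them CAGCTG was found in 40.1% (38.6 to 41.6%) of 4038 Control-only, 23.6% of 943 TRF2KO-only and 39.7% (39.2 to 40.2%) of 35877 shared regions. There, too, weak shared regions held it less often, at 27.9% (26 to 29.9%) for folds of 3 to 4, than Control-only regions of that height, at 38.9% (36.6 to 41.3%). In shared regions away from promoters it went from 24.4% under a fold of 3 to 43.1% at 7 and over. The pooled shares of Control-only and shared regions away from promoters had overlapping intervals.

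The other 9 hexamers of the form CANNTG, which include binding letters of other basic helix-loop-helix factors, differed by fewer percentage points between members and the other classes, although the relative difference from shared regions was as large or larger for some of them, such as CAGATG and CAAATG. The latter was present in 17.3% of members and 10.6% of shared regions. CACCTG was present in 25.1% of members (22.8 to 27.6%), 22.9% of TRF2KO-only regions (19 to 27.3%) and 19.1% of shared regions, and CAGATG in 28.9% (26.5 to 31.4%), 26.1% (21.9 to 30.6%) and 18.4%. For both, the intervals of Control-only and TRF2KO-only regions overlapped. Those of CAGCTG did not.

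With all heights and distances pooled, members were poor in the GC-rich motifs of housekeeping promoters. GGGCGG, recognized by SP and KLF factors, was present in 10.7% of members (9.07 to 12.4%), 18.6% of TRF2KO-only regions (15 to 22.7%) and 43.1% of shared regions, and in 36.0% of RefSeq promoters. The ETS letters CCGGAAG were present in 1.64%, 2.66% and 10.0% (9.0% of RefSeq promoters). At a lower fold from 3 to 4 they were present in 2.12% (1.10 to 3.67%) of members and 2.62% (1.70 to 3.84%) of shared regions. Beyond 500 bp from a start the ETS shares were 1.44% (0.770 to 2.45%) and 2.26% (1.93 to 2.62%). In both of these comparisons the intervals overlapped. Beyond 500 bp from a start the shares of GGGCGG were 7.98% (6.30 to 9.95%) in members and 12.9% (12.1 to 13.6%) in shared regions. CpG-rich windows, with at least 50% GC and a CpG ratio of at least 0.6, made up 4.48% of members, 12.3% of TRF2KO-only and 43.0% of shared regions. At a lower fold from 3 to 4 they made up 6.36% (4.49 to 8.70%) of members and 18.9% (16.4 to 21.5%) of shared regions. For GGGCGG the shares at that height were 12.7% (10.1 to 15.7%) and 23.6% (20.9 to 26.4%).

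The AP-1 letters TGANTCA, bound by Fos and Jun dimers, were present in 10.7% of members (9.14 to 12.5%), 15% of TRF2KO-only regions (11.7 to 18.8%) and 11.1% of shared regions, and in 7.84% of RefSeq promoters. TGTGGT, recognized by RUNX factors, was present in 22.7, 22.5 and 16.0%, and in 16.7% of RefSeq promoters. AGNNGGCA, part of the CTCF motif, was present in 33.2, 28.0 and 27%, and in 20.7% of RefSeq promoters. In these motifs Control-only and TRF2KO-only regions had overlapping intervals. Beyond 500 bp from a start, AP-1 letters were present in 11.9% (9.82 to 14.2%) of members and 18.5% (17.6 to 19.4%) of shared regions. Within 500 bp the shares were 8.45 and 7.87%. For TGTGGT they were 24.3 and 22.2% beyond 500 bp, with overlapping intervals, and 19.4 and 13.3% within it. For AGNNGGCA they were 31.6 and 34.2% beyond 500 bp, also with overlapping intervals, and 36.5 and 23.9% within it. Both strands were searched for each motif, and all lie within the same windows, so that motifs can overlap each other.

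TRF2 was rarely found at the members. A CUT&Tag peak of both TRF2 libraries overlapped 10 members (0.746%, 0.358 to 1.37%), and a peak of either library 32 (2.39%, 1.64 to 3.35%). The IgG library had a peak over 1. Shared promoter regions had a TRF2 peak in both libraries in 21.1%, and TRF2KO-only regions in 0.242% (1 of 414).

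Peak height moved with this difference. Among shared regions with a lower fold from 3 to 4, 1.15% (0.577 to 2.05%) had a TRF2 peak in both libraries, against 1.06% (0.390 to 2.29%) of members of that height. From 4 to 5 the shares were 2.24% (1.47 to 3.27%) and 0.820% (0.0994 to 2.93%), and at 7 and over they were 25.7% and 0 of 30, which allows up to 11.6%. Below a fold of 7, a lower share with TRF2 peaks in both libraries was not detectable in members, where the counts by bin were only 0, 6, 2 and 2. For a peak in either library, the shares from 3 to 4 were 6.60% (5.11 to 8.37%) in shared regions and 2.83% (1.62 to 4.55%) in members, with intervals apart. They were 9.23 and 2.46% from 4 to 5 and 7.68 and 2.89% from 5 to 7. Under a fold of 3, 12 of 160 shared regions and 5 of 327 members had such a peak. The intervals were apart in these bins too, though from 5 to 7 only just. Beyond 500 bp from a start, with heights pooled, TRF2 peaks in both libraries were in 3.21% (2.82 to 3.64%) of shared regions. In members the share there was 0.776% (0.313 to 1.59%). Regions from 3 to 4 had a median width of 718 bp when shared and of 444 bp among members, and the part of width was not tested.

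The 10 members with a TRF2 peak in both libraries had TRF2 folds of 4.05 to 10.5. The first, near the noncoding transcript D630033O11Rik, had TRF2 folds of 8.49 and 7.58 and ATAC folds of 4.37 and 3.42 in Control 1 and 2. In an intron of Pzp, a protease inhibitor gene, the TRF2 folds were 6.81 and 10.5 and the ATAC folds 7.36 and 6.48. At Gm30329, shown above with 2 copies of CAGCTG, they were 6.42 and 6.21, with ATAC folds of 4.60 and 4.32.

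In an intron of Ppt1, the gene of a lysosomal thioesterase, the TRF2 folds were 6.51 and 5.67 and the ATAC folds 7.59 and 6.12. The other members of this set were near Miga1, Rrbp1, Epg5, Kcnj12, Gm3238 and Samd11, with lower TRF2 folds of 4.05 to 5.22. The Miga1 region also had the IgG peak. None of the 10 held a G-quadruplex (G4) motif or a telomeric repeat.

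G4 motifs, searched on either strand as 4 stretches of 3 or more G separated by up to 7 bases, can fold into a four-stranded structure. They were present in 172 members (12.8%, 11.1 to 14.7%), 14.7% of TRF2KO-only regions and 48.8% of shared regions. In the 300-bp windows, which take away the difference in width, the shares were 7.84% (6.45 to 9.41%), 13.5% (10.4 to 17.2%) and 19.6%. Beyond 500 bp from a start they were 6.43% (4.92 to 8.23%) in members, 11.6% (7.86 to 16.4%) in TRF2KO-only and 8.81% (8.17 to 9.48%) in shared regions. Runs of 3 telomeric units were found in 0 of 1340 members, which allows up to 0.275%. They were found in 10 of 24477 shared regions (0.0409%) and 0 of 414 TRF2KO-only regions, so their absence does not set members apart.

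Genes were grouped by lists that were chosen with earlier results of these data known, and the counts are descriptions. A start is any annotated transcript start, internal ones included, so that a region can lie far from the outermost start of its gene. By that distance the summits near Notch1, Bmp6, Rbfox3 and Hdac4 lay 45737, 49316, 150791 and 201848 bp inside. Of 20807 protein-coding genes, 926 (4.45%) had a start within 3 kb of a member. Sarcomere and muscle differentiation genes had one in 10 of 41 (24.4%), while muscle stem cell and myogenic genes, such as Pax7, Myf5 and Myod1, had one in 0 of 32. Of the stem cell list, 31 of 32 genes had a start in a region with a peak in all 4 libraries, and of the sarcomere list 20 of 41. Only 2 of the 10 sarcomere genes with a member (Myl2 and Myom1) also had such a start.

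**Figure D5:**
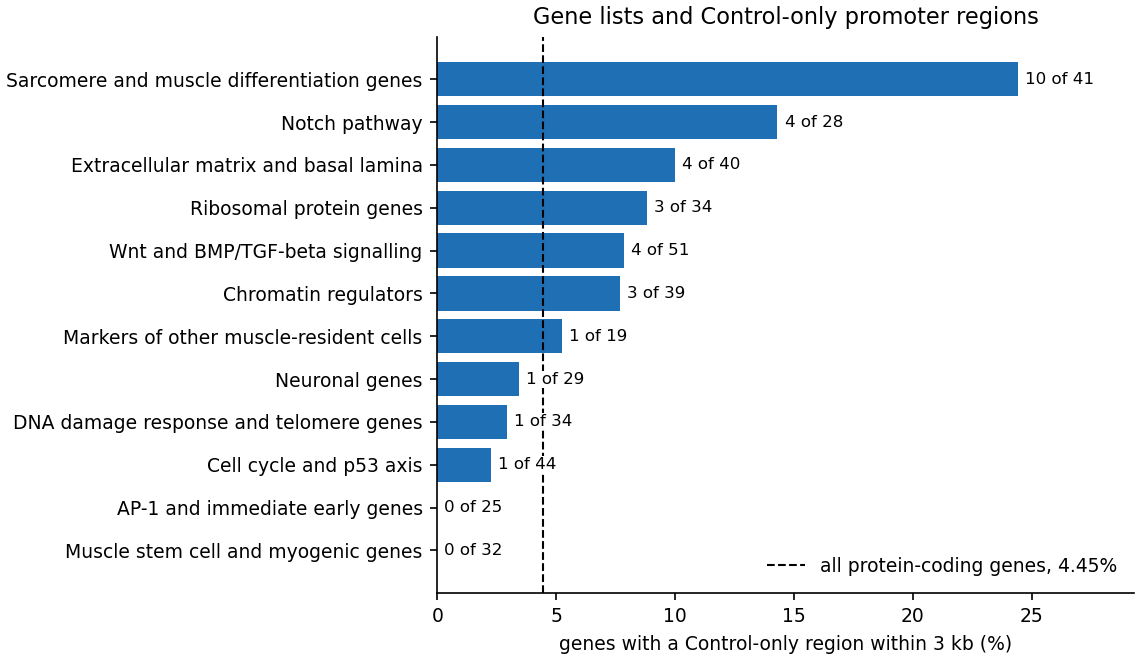
Share of the genes of each list (x axis, %) with a transcript start within 3 kb of a Control-only promoter region, with counts beside the bars and the share of all protein-coding genes (4.45%) as a dashed line. The sarcomere and muscle differentiation list has 10 of 41 and the muscle stem cell list 0 of 32.

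The 10 genes carried 13 members. They were low peaks, with lower folds of 2.34 to 4.86 and a median of 3.24, against 3.45 for all members. CAGCTG lay within 150 bp of the summit in 9 of 13, and 7 of 13 had no region of another caller in TRF2KO. GoPeaks listed 6 of 13 in at least 1 Control library and 2 of 13 in both, and it listed 2 of 13 in a TRF2KO library. TRF2 had a peak over 1, that of Actc1. The count of genes was 6 with lists of equal length, 3 with a stricter Control threshold, and 3 with GoPeaks and 0 with SEACR in place of MACS.

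Titin (Ttn), the molecular spring of the sarcomere, had 2 members near its start. The intronic one had folds of 6.21 in Control 1 and 4.86 in Control 2 and none in TRF2KO, and the one at the start 3.68 and 2.88. Mymk, the gene of the fusogen myomaker, had 3. Their folds were 5.52 and 3.78 in the intron shown above, 3.68 and 3.24 in another stretch of intron, and 3.45 and 3.60 at the start itself. At Ttn no other caller listed a region in TRF2KO, and at Mymk SEACR covered each of the 3 in 1 TRF2KO library and GoPeaks listed 1 of them there.

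Actin genes were represented by Actc1, the cardiac alpha-actin also made in developing muscle, with folds of 5.29 and 3.78 over its start, and by Acta1, the skeletal alpha-actin, with 3.45 and 2.70 1175 bp away from its start. The myosin genes were Myh3, the embryonic heavy chain, with 3.68 and 3.96 upstream of its start, and Myl2, a regulatory light chain, with 4.60 and 3.42. Both troponin genes encode fast-fibre subunits. At Tnni2 the folds were 3.45 and 3.24, and at Tnnt3 2.76 and 2.34.

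Cacna1s had a member with folds of 3.45 and 3.06, and Myom1, which encodes an M-band protein, one with 2.76 and 2.52. Each of the 13 rested on 11 to 26 fragments at the summit per Control library. All 13 folds lay below the median of regions with a peak in all 4 libraries.

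Starts of the sarcomere list were counted in each library on its own. A start lay in a MACS peak for 23 of 41 genes in Control 1, 28 in Control 2, 21 in TRF2KO 1 and 18 in TRF2KO 2, while over all 20780 protein-coding gene symbols the share was 64.3, 65.5, 64.6 and 64.3%. The libraries of the 2 genotypes did not overlap, but Control 1 and 2 differed by more than Control 1 and TRF2KO 1. Control 2 also had the most starts called in the neuronal list, with 16 of 29 against 12 in each of the other libraries. Both Control libraries and neither TRF2KO library had a start peak at 3 genes (Actc1, Tnni2 and Mymk), Control 2 alone at 5 (Ttn, Tnnc1, Tnnt3, Atp2a1 and Cacna1s), and no library at 11. With 2 libraries against 2 there are 6 ways to assign the labels and the smallest two-sided exact permutation p is 0.333, so no genotype difference was tested.

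Markers of myofibres, the other cells of the tissue that use these genes, were read in the same way. At Ckm and Myh4 no library had a peak at a start. At Myh1 all 4 had one, with folds of 35.2 and 27.4 in Control and 30.4 and 28.4 in TRF2KO. At Acta1 the start had a fold of 5.98 in Control 1 and 2.74 in TRF2KO 1 and no peak in Control 2 or TRF2KO 2. Of the defining markers, 2 of 4 had no start peak in any library, and their part in the result was not tested. In bulk libraries fewer cells with an open region and less opening per cell cannot be told apart.

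The other lists stood nearer to the background share. Notch pathway genes had a member in 4 of 28 (14.3%), extracellular matrix genes in 4 of 40 (10.0%), ribosomal protein genes in 3 of 34 (8.82%), Wnt and BMP/TGF-beta genes in 4 of 51 (7.84%) and chromatin regulators in 3 of 39 (7.69%). Markers of other muscle-resident cells had 1 of 19, neuronal genes 1 of 29, DNA damage response and telomere genes 1 of 34, cell cycle genes 1 of 44, and AP-1 and immediate early genes 0 of 25.

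Among Notch genes, Psen2, a catalytic subunit of the gamma-secretase that releases the Notch intracellular domain, had folds of 3.68 and 3.06 in Control 1 and 2. The receptor gene Notch1 had 2.99 and 3.42 in a coding exon, and Numbl, the gene of a Numb-like adaptor, 3.45 and 2.70. These genes had a start in a region with a peak in all 4 libraries.

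Among signalling genes, the ligand gene Bmp6 had folds of 5.06 and 4.86, Bmp4 2.76 and 3.24, and Tgfbr3, which encodes the co-receptor betaglycan, 3.45 and 3.06. Upstream of Mstn, whose product myostatin restrains muscle growth, they were 3.91 and 2.52, and no start of Mstn lay in a region with a peak in all 4. Of the matrix genes, the collagen genes Col3a1, Col1a2 and Col1a1 had 5.06 and 4.86, 3.45 and 3.06, and 3.22 and 2.70, and Lamc1, a laminin chain of the basal lamina, 3.91 and 3.60.

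The remaining listed genes were chromatin regulators (the deacetylase genes Hdac3 with 4.37 and 4.14 and Hdac4 with 3.91 and 2.88, and the DNA methyltransferase gene Dnmt3b with 3.68 and 3.78) and ribosomal protein genes (among them Rpl13 with 2.99 and 2.52 and Rps2 with 3.68 and 2.52). Single members lay near Rtel1, a helicase gene of telomere maintenance (3.22 and 2.52), the cyclin gene Ccnd3 (2.53 and 3.42), the endothelial gene Pecam1 (5.75 and 3.96) and the neuronal gene Rbfox3 (4.83 and 3.06). Except at Pecam1 and Rbfox3, these genes had a start in a region with a peak in all 4 libraries. The region near Rtel1 had no TRF2 peak.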

How the data were processed

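ATAC-seq and CUT&Tag libraries had been aligned to mm10 (GRCm38) by the authors, with Bowtie2 2.5.4 for ATAC and 2.4.4 for CUT&Tag according to the submitters' processing notes. Reads as such were not used here. For each library the authors deposited a MACS3 peak list (version 3.0.2 for ATAC, 3.0.0 for CUT&Tag) with a fold over local background (a ratio), a −log10 p and a −log10 q for each peak. For each ATAC library the authors also deposited GoPeaks regions and SEACR 1.3 stringent regions with their signal. They further deposited 1 consensus list per genotype, and how libraries were pooled for it is not given in the sources used here. The score column of the deposited files was not used. MACS settings, and whether ATAC reads were shifted for the transposase, are not given either.

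MACS peaks of the 4 ATAC libraries on chromosomes 1 to 19 were merged when they shared at least 1 bp, with Python 3.11.15, numpy 2.4.6, pandas 2.3.3 and scipy 1.17.1. Regions within 3 kb of any GENCODE M21 transcript start were promoter regions. A library had a region when 1 of its peaks overlapped it. The summit pileup was solved from the deposited fold and −log10 p under the Poisson model of MACS, in which fold is pileup plus 1 over background plus 1. Motifs were searched on both strands of GRCm38 in the 300 bp around the Control 1 summit (TRF2KO 1 for TRF2KO-only regions). RefSeq promoters (GRCm38.p6) gave the share among all promoters. The steps were tested on simulated data.

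Samples were grouped by their titles. Shares carry exact (Clopper-Pearson) 95% intervals, which cover counting error only: regions are not replicates, and nothing in the labels says that the libraries came from separate animals. With 2 libraries a genotype and no read counts per region, no test between genotypes was made. The 2 Control libraries could not be compared for duplicate reads, but their peak lists differed. Members and gene lists were chosen with earlier results of these data known. Genes were named by rule: the 15 members with the highest lower Control fold, members with a TRF2 peak in both libraries, members near listed genes, and those nearest to the 3 kb limit. The CAGCTG and sarcomere results and the Rpn2 group were added after their values were seen. Alternatives covered the distance limit, the starts used, the peak threshold, list length, merging, the caller, the G4 definition and leaving out each library. Values of some members near listed genes are not reported here.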

Additional observations from a re-analysis of the deposited data

How the results depend on the processing

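Of 94 values under an alternative, 32 stayed within the limit set for them and 62 did not, where the limit was the counting interval for a share and 1.5 times the count for a count. None has a direction to reverse. The causes were not tested. The 1340 Control-only promoter regions became 650 within 1 kb of a start, 643 with protein-coding starts alone, 619 with a Control −log10 q of at least 5, 621 without any caller's region in TRF2KO, 887 with lists of equal length, 813 with GoPeaks, 116 with SEACR and 1044 with the deposited consensus lists, and from 2184 to 6971 when 1 library was left out, where leaving out a library of either genotype removes a condition of the rule. The share with a TRF2 peak was 2.39% for either library, 0.224% with a TRF2 −log10 q of at least 5, and 0.230 to 1.64% without 1 library. The share with a G4 motif was 14.8% within 1 kb, 15.7% with protein-coding starts, 8.89% at the stricter threshold, 9.98% without any caller's region in TRF2KO, 22.5% with loops of up to 12 bases, 7.84% in the summit window, and 8.25 to 14.9% without 1 library. The share within 500 bp of a start was, in the same first 4 settings, 67.4, 24.7, 27 and 36.6%, then 29.7% with lists of equal length, 25.1% from the summit and 30.0 to 33.2% without 1 library.

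The share with a GoPeaks or SEACR region in TRF2KO was 66.7% with protein-coding starts, 44.3% at the stricter threshold, 49.8% with equal lists, 6.42% for GoPeaks alone, 50.5% for SEACR alone and 44.8 to 58.0% without 1 library. The share whose gene had a start open in all 4 libraries was 56.5% within 1 kb, 75.9% with protein-coding starts, 54.1% at the stricter threshold, 42.0% without any caller's region in TRF2KO, 56.3% with equal lists and 59.6 to 65.8% without 1 library.

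CAGCTG was present in 50.6% at the stricter threshold, 45.9% without any caller's region in TRF2KO, 46.4% with equal lists, and 29.1% (without Control 1) to 38.8% without 1 library. Sarcomere genes with a member numbered 6 within 1 kb, 3 at the stricter threshold, 6 without any caller's region in TRF2KO, 6 with equal lists, 3 with GoPeaks, 0 with SEACR, and 12 to 21 without 1 library, the highest without Control 1. These last 2 results were chosen after the data were seen. No paired analysis was possible because no result comes from a test between groups. Peak lists hold no reads below the calling threshold, so a region without a peak may still have had signal.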
